A study of Homo sapiens with 6 samples.

Results

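Of 19973 genes in the deposited table, 51 were taken by symbol as ephrins, Eph receptors, semaphorins of classes 3 to 7 and plexins, and their reads were compared between OVCAR3 cells with shNUF2 and with shNC. They comprised 8 ephrin genes, 14 Eph receptor genes, 20 semaphorin genes and 9 plexin genes. Ephrins are ligands held in the cell membrane, by a lipid anchor (the A class) or a transmembrane stretch (the B class), and they bind Eph receptors, the largest family of receptor tyrosine kinases, on a touching cell. Semaphorins are secreted or membrane-bound ligands whose receptors are the plexins, often with a neuropilin as co-receptor. Both systems were described in growing axons and blood vessels, where they steer cells by attraction and repulsion, and both are used by carcinoma cells in contact, spreading and migration.

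OVCAR3 is an established human ovarian carcinoma cell line. All cells had been transfected with a short hairpin plasmid: the shNC group (genotype label WT, 3 libraries) carried a control hairpin, and the shNUF2 group (genotype label NUF2 knockdown, 3 libraries) carried 1 hairpin against NUF2, a subunit of the NDC80 kinetochore complex. Neither labels nor methods say that the libraries of a group came from separate transfections or cultures, so p-values measure the spread between these libraries, which may be technical, and the comparison rests on 1 cell line. The comparison asks which of these ligands and receptors differ in RNA level when NUF2 is reduced.

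The libraries held 13057534 to 16995452 reads on genes. NUF2 had 903, 1096 and 1092 reads per library under shNC and 281, 290 and 384 under shNUF2 (log2 fold change -1.51 ± 0.077 (SE), edgeR adjusted p = 2.17e-15), so every library matched its label. Mitochondrial genes took 3.57% to 3.85% of reads with shNC and 2.38% to 2.63% with shNUF2. Genes with at least 1 read numbered 14582 to 14691 with shNC and 15435 to 15536 with shNUF2, where EPHA8, EPHB3, EFNB3 and SEMA4A also went from at most 2 reads to more, and the part of this gain in their reads was not tested. Of 8 ovarian carcinoma epithelial markers, 7 were tested, 4 were higher and 2 lower with shNUF2, and their summed level was 878 to 936 CPM (reads scaled to the size of the library) with shNC and 1109 to 1163 with shNUF2. Most of this sum came from KRT8, a keratin of simple epithelia that was higher (337 and 692 CPM, group means), and from MSLN (mesothelin), which was lower (392 and 233 CPM). The epithelial adhesion genes EPCAM (3.39 and 5.45 CPM) and CDH1 (1.38 and 0.843 CPM) were at low levels, and WT1, which marks serous carcinoma, had at most 7 reads. Of 4 fibroblast markers COL1A1 was lower (summed 81.0 to 86.6 CPM, then 60.8 to 66.5), of 3 endothelial markers CDH5 was higher (summed 1.75 to 3.38 CPM, then 3.41 to 4.92), a gene with 1, 1 and 4 reads under shNC and 15, 19 and 27 under shNUF2 that entered the test through the shNUF2 libraries alone, and of 4 Schwann and neuronal markers 1 was higher (1.62 to 2.91 CPM, then 2.82 to 4.39). None of the 3 leukocyte markers had enough reads for the test (at most 0.923 CPM summed). CD3E and CD68 had at most 2 reads, and PTPRC had 0, 1 and 0 reads under shNC and 6, 11 and 6 under shNUF2, higher in every shNUF2 library. The part of any marker in the results below was not tested.

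Reads were sufficient to test 39 of the 51 genes, and the changes ran in both directions with more genes higher than lower after NUF2 knockdown. With shNUF2, 10 of the 39 (25.6%) were higher past a log2 fold change of 1 at an unadjusted p under 0.05, where 9.41% of the 12874 genes tested were. Another 3 (7.69%) were lower past -1, against 4.16% of all genes tested. At an adjusted p under 0.05 and any size of change, 24 (61.5%) were higher and 8 (20.5%) were lower, against 33.9% and 33.8% of all genes tested. The median log2 fold change was 0.47 over the 39 genes and -0.01 over all genes tested. The CPM ranges of the groups were apart, with shNUF2 above, for 25 of the 39 (35.2% of all genes tested) and, with shNUF2 below, for 8 (35.4%). SEMA6A, 1 of the 3 past -1 and of the 8 lower, entered the test through its level in the shNC libraries alone, so it had to be lower to be tested and its call supports nothing. Of the other 38 genes tested, 35 were over the filter level of 0.682 CPM in all 6 libraries. EFNB2 was over it in 1 shNC and 3 shNUF2 libraries, SEMA5B in 3 and 2 and EPHA7 in 1 and 2, so that EFNB2 and SEMA5B would have entered through the group where they were high. These are bulk libraries, in which fewer cells expressing a gene and less RNA per cell cannot be told apart.

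**Figure D1:**
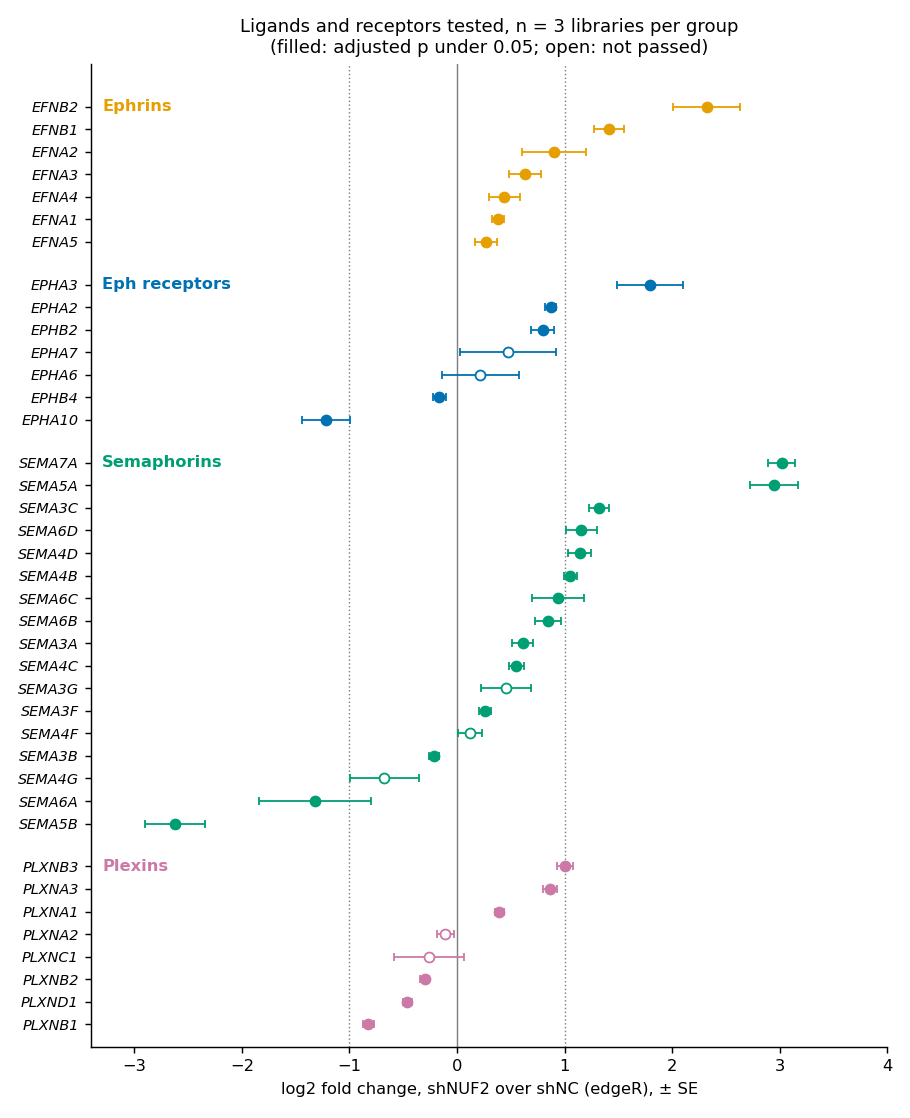
Log2 fold change (shNUF2 over shNC) with its standard error for the 39 genes tested, grouped by family, where filled points passed an adjusted p under 0.05 and dotted lines mark 1 and -1. All 7 ephrins tested lie to the right of 0, while Eph receptors, semaphorins and plexins lie on both sides, from -2.62 for SEMA5B to 3.02 for SEMA7A.

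The promoters of the 3 genes with the largest rise and of the gene with the largest fall are shown to give the sequence context of the start sites. They are RefSeq windows on GRCh38.p14, from 250 bases before to 50 bases after the start, written on the strand of the gene. Capitals mark matches, on either strand, to the GC box (GGGCGG) and, in EFNB2, to the TATA box (TATAAA). In all 4 the RefSeq start was the gene start given in the deposited table. SEMA7A (ENSG00000138623) lies at chr15:74433909-74434208, SEMA5A (ENSG00000112902) at chr5:9546026-9546325, EFNB2 (ENSG00000125266) at chr13:106535613-106535912 and SEMA5B (ENSG00000082684) at chr3:123028556-123028855, all on the minus strand.
SEMA7A: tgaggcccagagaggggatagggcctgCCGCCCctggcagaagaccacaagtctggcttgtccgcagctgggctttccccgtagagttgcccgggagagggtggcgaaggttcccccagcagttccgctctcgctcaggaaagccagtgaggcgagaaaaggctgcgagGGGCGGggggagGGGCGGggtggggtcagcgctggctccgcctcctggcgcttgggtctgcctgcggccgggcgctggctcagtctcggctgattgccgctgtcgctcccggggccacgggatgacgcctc
SEMA5A: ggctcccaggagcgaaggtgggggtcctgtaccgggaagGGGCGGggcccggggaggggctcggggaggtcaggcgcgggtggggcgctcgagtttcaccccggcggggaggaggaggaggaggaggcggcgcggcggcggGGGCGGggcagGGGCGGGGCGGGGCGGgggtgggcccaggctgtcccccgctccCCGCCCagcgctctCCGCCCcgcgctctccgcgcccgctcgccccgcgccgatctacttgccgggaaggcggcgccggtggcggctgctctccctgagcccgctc
EFNB2: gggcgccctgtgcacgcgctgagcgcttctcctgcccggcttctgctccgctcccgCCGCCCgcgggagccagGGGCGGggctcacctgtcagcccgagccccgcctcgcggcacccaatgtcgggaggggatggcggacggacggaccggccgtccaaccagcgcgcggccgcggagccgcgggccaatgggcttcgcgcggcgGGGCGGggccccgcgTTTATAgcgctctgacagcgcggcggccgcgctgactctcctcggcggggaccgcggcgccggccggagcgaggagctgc
SEMA5B: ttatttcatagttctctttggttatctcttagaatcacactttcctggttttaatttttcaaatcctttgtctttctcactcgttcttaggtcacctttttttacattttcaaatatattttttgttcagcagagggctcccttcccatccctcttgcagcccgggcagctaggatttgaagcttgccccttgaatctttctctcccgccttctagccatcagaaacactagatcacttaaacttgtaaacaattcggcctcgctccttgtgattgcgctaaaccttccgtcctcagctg

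The windows of the 3 genes that rose were rich in G and C (70% in SEMA7A, 81% in SEMA5A and 78.7% in EFNB2), and that of SEMA5B held 42%. SEMA7A held 3 GC boxes, SEMA5A 7, some of them overlapping each other, and EFNB2 3 with a TATA box match that starts 30 bases before the start, on the opposite strand. The SEMA5B window held none of the 5 motifs searched. A window was found for 46 of the 51 genes, 25 of them at the start given in the deposited table, and the window nearest that start was used. Among these, 38 held a GC box, 4 an E-box (CACGTG; EPHA8, SEMA3E, SEMA4D and SEMA6D), 2 a CRE (TGACGTCA; EPHA2 and SEMA4C), 1 a TATA box and 0 an AP-1 site (TGANTCA). Of 35097 RefSeq windows of the same length, 44.9% held a GC box, 7.25% an E-box, 1.85% a CRE, 11.5% a TATA box and 7.71% an AP-1 site. The median GC content was 67.5% in the 46 windows and 58.7% in all windows. The 35097 windows can hold more than 1 start per gene, whereas 1 window per member was used. With every window of the members taken, their median GC content was 65.7%. These matches describe the letters in the windows and nothing about binding.

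The ephrins were the family in which every gene tested was higher with shNUF2. All 7 tested passed the adjusted p, with a median log2 fold change of 0.63, where 33.9% of all genes tested were higher. The CPM ranges of the groups were apart, with shNUF2 above, for each of them and for 35.2% of all genes tested. The calls of EFNA2, EFNA4 and EFNA5 were lost when certain libraries were left out, as given below. EFNB2 was over the filter level in only 1 shNC library. The B-class ligands changed most. EFNB2, a transmembrane ligand that marks arterial endothelium and binds EPHB4, had 9, 9 and 23 reads per library under shNC and 60, 57 and 63 under shNUF2. Its level was 0.844 ± 0.428 CPM with shNC and 4.34 ± 0.137 CPM with shNUF2 (SD, n = 3 each), a log2 fold change of 2.32 ± 0.31 (SE, adjusted p = 2.86e-07). All shNUF2 libraries were several times above the highest shNC library, although the shNC libraries had few reads and shNC replicate 3 had more than the others.

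EFNB1, the transmembrane ligand encoded on chromosome X and mutated in craniofrontonasal syndrome, had 86, 122 and 109 reads per library under shNC and 214, 269 and 256 under shNUF2. It rose from 6.67 ± 0.844 to 17.9 ± 2.52 CPM (SD, n = 3 each), a log2 fold change of 1.42 ± 0.14 (SE, adjusted p = 1.08e-09), and the lowest shNUF2 library stood well above the highest shNC library. EFNB3, the remaining B-class ligand, had 2, 0 and 0 reads under shNC and 7, 12 and 8 under shNUF2, too few for the test. Its reads were higher in every shNUF2 library.

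The lipid-anchored A-class ligands rose less. EFNA1, the main ligand of EPHA2 and the ephrin with the highest level per gene length, had FPKM (reads per kilobase of gene, scaled to the size of the library) values of 112, 98.7 and 102 in the shNC libraries and 140.2, 119 and 138 in the shNUF2 libraries. Its log2 fold change was 0.38 ± 0.058 (SE, adjusted p = 1.97e-06), and the shNUF2 libraries lay above the shNC libraries with a small gap. EFNA4, next in level, had FPKM values of 5.58, 6.74 and 6.83 with shNC and 9.46, 8.71 and 7.31 with shNUF2 and a log2 fold change of 0.44 ± 0.15 (SE, adjusted p = 0.00985). The other A-class ligands rose by 0.27 ± 0.10 (EFNA5), 0.63 ± 0.15 (EFNA3) and 0.91 ± 0.30 (EFNA2) on the log2 scale. The calls of EFNA2, EFNA4 and EFNA5 were each lost when certain libraries were left out. EFNA2 reached an adjusted p of 0.0723 without shNUF2 replicate 2, EFNA4 reached 0.0505 without shNC replicate 1 and 0.0658 without shNUF2 replicate 1, and EFNA5 reached 0.0584 to 0.0798 without shNC replicate 3, shNUF2 replicate 1 or shNUF2 replicate 2. EFNA4, EFNA3 and EFNA1 are neighbours on chromosome 1, in this order and on 1 strand, with gaps of 9.3 and 40.3 kb. Exons of EFNA4 and EFNA3 overlap a readthrough gene (AL691442.1) on the same strand by 189 and 853 bases in GENCODE release 29, so reads there cannot be assigned with certainty.

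The Eph receptors split into 3 that were higher, 2 that were lower and 2 that did not pass, of 7 tested. These counts are 42.9% higher and 28.6% lower, near the 33.9% and 33.8% of all genes tested. EPHA2, an A-class receptor that is abundant in epithelial cells, dominated the family. Its FPKM values were 105, 96.5 and 91.1 in the shNC libraries and 184, 168 and 169 in the shNUF2 libraries. The log2 fold change was 0.87 ± 0.05 (SE, adjusted p = 2.43e-14), short of the threshold of 1, and the lowest shNUF2 library was well above the highest shNC library. EPHA2 held 87.9% to 89.9% of the summed FPKM of the 14 Eph receptors with shNC and 92.9% to 94.0% with shNUF2.

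EPHA3, an A-class receptor of mesenchymal and embryonic tissues, had 13, 24 and 15 reads per library under shNC and 47, 38 and 75 under shNUF2. Its level rose from 1.10 ± 0.352 to 3.80 ± 1.07 CPM (SD, n = 3 each), a log2 fold change of 1.79 ± 0.31 (SE, adjusted p = 1.34e-05), without overlap between groups but with a wide spread among the shNUF2 libraries. EPHB2, a B-class receptor that orders cells along the intestinal crypt, had 187, 186 and 230 reads per library under shNC and 294, 292 and 331 under shNUF2 and rose by 0.80 ± 0.11 on the log2 scale (adjusted p = 2.17e-07). All shNUF2 libraries of EPHB2 lay close together and above shNC.

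EPHA10, a receptor that lacks a functional kinase, fell. It had 68, 94 and 108 reads per library under shNC and 28, 35 and 38 under shNUF2, and its level went from 5.65 ± 0.774 to 2.43 ± 0.318 CPM (SD, n = 3 each), a log2 fold change of -1.22 ± 0.22 (SE, adjusted p = 2.72e-05). Each shNUF2 library was below each shNC library. EPHB4, the receptor of EFNB2 and second in level per gene length, had FPKM values of 9.65, 10.5 and 10.3 in the shNC libraries and 8.31, 9.53 and 8.63 in the shNUF2 libraries. Its log2 fold change of -0.17 ± 0.062 (SE, adjusted p = 0.02) was small, and the call was lost under DESeq2 (adjusted p = 0.0565) and without shNC replicate 2, shNUF2 replicate 1 or shNUF2 replicate 3 (adjusted p = 0.0694 to 0.0876). Exons of EPHB4 overlap SLC12A9 on the opposite strand by 69 bases.

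EPHA6 (0.22 ± 0.36) and EPHA7 (0.47 ± 0.45), receptors best known from the nervous system, did not pass the test (log2 fold change ± SE, adjusted p = 0.6 and 0.357). Their groups overlapped and their standard errors were wide. Another 7 Eph receptors had too few reads. EPHB3, a B-class receptor of epithelial stem cell niches, had 0, 1 and 1 reads under shNC and 21, 16 and 6 under shNUF2, the largest count among the genes left out of the test. EPHA1 had 5, 6 and 2 reads under shNC and 8, 8 and 10 under shNUF2. EPHA8 had 0 reads in each shNC library and 3 in each shNUF2 library. EPHA4, EPHA5, EPHB1 and EPHB6 had at most 5 reads in any library.

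**Figure D2:**
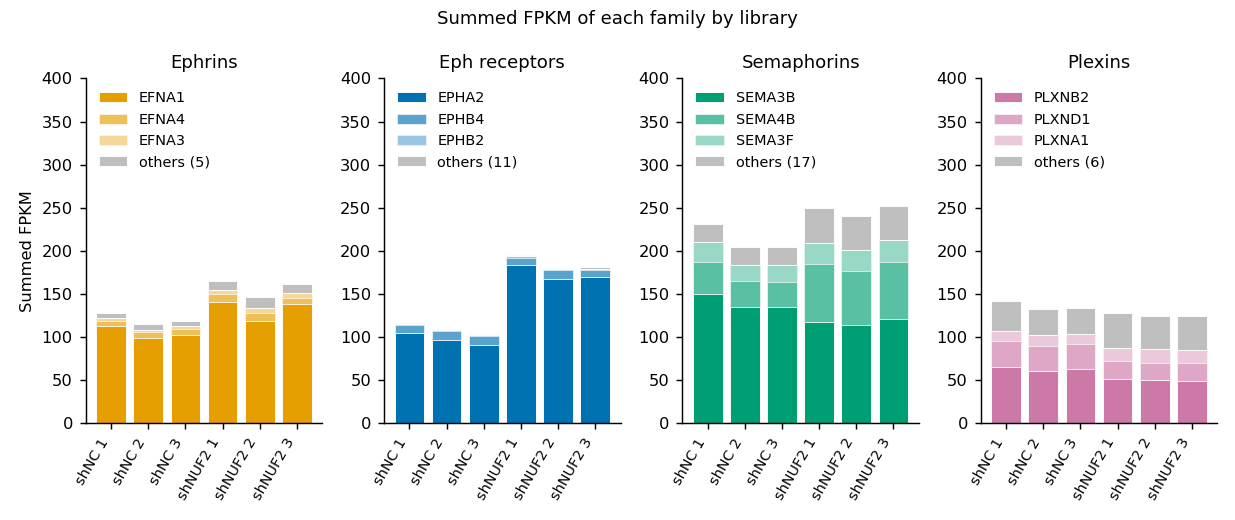
Summed FPKM of each family in each library, stacked by the 3 members with the highest mean level and the remaining genes together. Ephrin sums were 120.3 ± 6.78 and 157 ± 10.03, Eph receptor sums 109.8 ± 6.35 and 186 ± 8.41, semaphorin sums 213 ± 15.7 and 247 ± 6.03 and plexin sums 136 ± 4.63 and 125 ± 2.13, as mean ± SD of 3 libraries with shNC and with shNUF2.

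Summed FPKM per library placed the ligands and receptors of the ephrin system at similar levels in shNC cells, with 115 to 128 for ephrins and 104 to 116 for Eph receptors. With shNUF2 the sums were 146 to 165 and 180 to 195. Most of both sums came from EFNA1 and EPHA2. The ratio of EPHA2 to EFNA1 FPKM was 0.930, 0.978 and 0.892 in the shNC libraries and 1.31, 1.41 and 1.22 in the shNUF2 libraries, without overlap.

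Among semaphorins, 11 were higher, 3 were lower and 3 did not pass, of 17 tested, with a median log2 fold change of 0.61. These counts are 64.7% higher and 17.6% lower, against 33.9% and 33.8% of all genes tested. SEMA6A, 1 of the 3 lower, had to be lower to be tested. The family held both the largest rise and the largest fall of the 39 genes tested. SEMA7A, the lipid-anchored semaphorin that binds beta-1 integrins and plexin C1, had 72, 63 and 75 reads per library under shNC and 541, 461 and 489 under shNUF2. Its level went from 4.46 ± 0.567 to 36.0 ± 3.84 CPM (SD, n = 3 each), a log2 fold change of 3.02 ± 0.12 (SE, adjusted p = 2.07e-17). Every shNUF2 library exceeded the highest shNC library several-fold.

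SEMA5A and SEMA5B, transmembrane semaphorins with thrombospondin repeats, moved in opposite directions. SEMA5A had 16, 15 and 27 reads per library under shNC and 128, 126 and 138 under shNUF2, and its level rose from 1.21 ± 0.324 to 9.46 ± 0.262 CPM (SD, n = 3 each) (log2 fold change 2.94 ± 0.22, SE, adjusted p = 7.18e-12). SEMA5B had 103, 104 and 102 reads per library under shNC and 8, 11 and 25 under shNUF2, and its level fell from 6.56 ± 0.660 to 1.03 ± 0.559 CPM (SD, n = 3 each) (log2 fold change -2.62 ± 0.28, SE, adjusted p = 5.49e-09). Neither gene had overlapping groups. The shNUF2 libraries agreed closely for SEMA5A, whereas shNUF2 replicate 3 held more SEMA5B reads than the other two. On the FPKM scale, the ratio of SEMA5A to SEMA5B was 0.107, 0.0998 and 0.183 with shNC and 11.1, 7.93 and 3.82 with shNUF2. The summed FPKM of both genes was 0.879 ± 0.0612 and 0.878 ± 0.0538 with shNC and with shNUF2 (SD, n = 3 each), a difference smaller than the spread between libraries. Exons of SEMA5A overlap an antisense gene (AC021088.1) by 436 bases and those of EFNB2 another (AL138689.2) by 1313 bases. The kit keeps the strand, but the strand setting of the counting is not given in the sources used here.

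**Figure D3:**
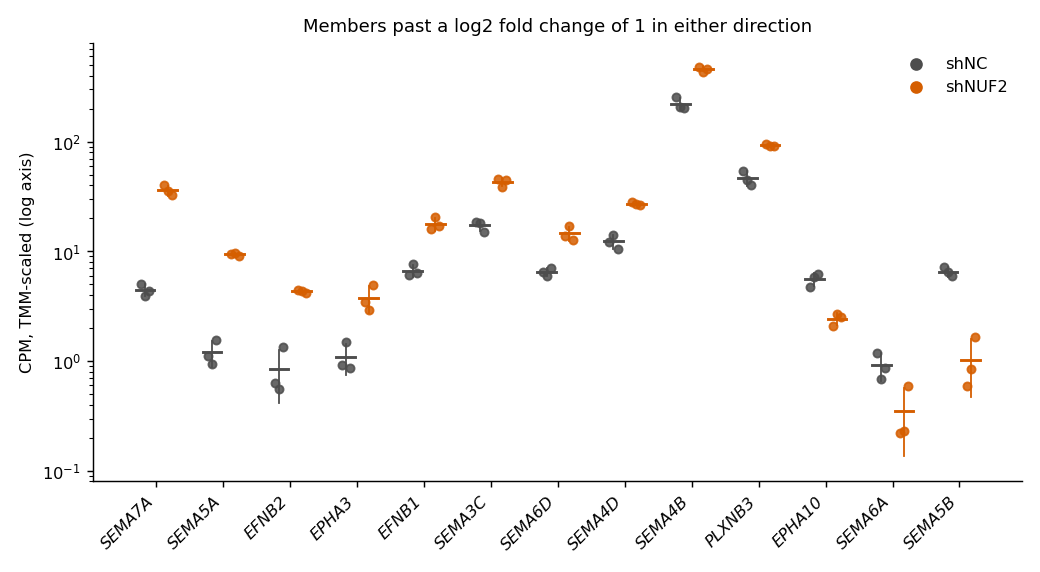
Level in CPM, on a log axis, in each library of the 13 genes past a log2 fold change of 1 in either direction, ordered by fold change, with horizontal lines for means and vertical lines for ± SD of 3 libraries. The groups do not overlap for any of the 13, from SEMA7A (4.46 and 36.0 CPM) at the left to SEMA5B (6.56 and 1.03 CPM) at the right. The 13 were picked by fold change and p in these same libraries, so their lack of overlap adds no support. Of all genes tested, 35.2% were apart with shNUF2 above and 35.4% with shNUF2 below. SEMA6A, 1 of the 13, entered the test through the shNC libraries alone.

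The class 4 semaphorins are transmembrane ligands of B-type plexins. SEMA4B, the semaphorin second in level, had 3647, 3318 and 3498 reads per library under shNC and 6526, 5671 and 6987 under shNUF2. Its level rose from 223 ± 29.6 to 462 ± 24.0 CPM (SD, n = 3 each), a log2 fold change of 1.06 ± 0.061 (SE, adjusted p = 2.87e-14), or 0.99 without shNC replicate 3. SEMA4D, the ligand of plexin B1, had 175, 227 and 181 reads per library under shNC and 377, 354 and 397 under shNUF2. It rose from 12.3 ± 1.84 to 27.2 ± 0.787 CPM (SD, n = 3 each), by 1.14 ± 0.11 on the log2 scale (adjusted p = 6.58e-10). For both genes the shNUF2 libraries were well above the shNC libraries. SEMA4C, a ligand of plexin B2, rose by 0.55 ± 0.073 (adjusted p = 2.08e-07). SEMA4F (0.12 ± 0.11, adjusted p = 0.332) and SEMA4G (-0.68 ± 0.32, adjusted p = 0.0636) did not pass. SEMA4G passed with at least 1 CPM in every library (adjusted p = 0.0472) and without shNC replicate 2 (adjusted p = 0.024), its fold change ranged from -0.89 to -0.44 when single libraries were left out, and its exons overlap MRPL43 on the opposite strand by 1170 bases. SEMA4A had 0 reads in the shNC libraries and 9, 6 and 3 in the shNUF2 libraries, and was not tested.

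The class 3 semaphorins are secreted, and most of them bind neuropilins. SEMA3C, which also signals through plexin D1, had 262, 293 and 259 reads per library under shNC and 614, 505 and 673 under shNUF2. It rose from 17.3 ± 1.92 to 43.1 ± 3.66 CPM (SD, n = 3 each) (log2 fold change 1.32 ± 0.094, SE, adjusted p = 1.91e-12), with the groups far apart. SEMA3B, a candidate tumour suppressor on the short arm of chromosome 3, was the semaphorin with the highest level, at FPKM values of 149.9, 134 and 134 in the shNC libraries and 117, 114 and 121 in the shNUF2 libraries. It fell by a small amount (-0.21 ± 0.046, SE, adjusted p = 2.59e-04), and the groups did not overlap in CPM. Its neighbour SEMA3F, 78.5 kb away and also a repellent of tumour and endothelial cells, rose by 0.26 ± 0.058 (adjusted p = 2.86e-04). The ratio of SEMA3B to SEMA3F FPKM was 6.63 ± 0.213 with shNC and 4.79 ± 0.189 with shNUF2 (SD, n = 3 each). SEMA3A, the axon repellent that binds neuropilin 1, rose by 0.61 ± 0.095 (adjusted p = 2.81e-06). SEMA3G did not pass (0.46 ± 0.23, adjusted p = 0.0855), although every shNUF2 library was above every shNC library. SEMA3D and SEMA3E had at most 5 and 4 reads.

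The class 6 semaphorins are transmembrane ligands of A-type plexins. SEMA6D, a ligand of plexin A1, had 93, 96 and 121 reads per library under shNC and 187, 222 and 193 under shNUF2 and rose from 6.53 ± 0.513 to 14.6 ± 2.21 CPM (SD, n = 3 each) (log2 fold change 1.15 ± 0.14, SE, adjusted p = 7.91e-08). SEMA6B and SEMA6C rose by 0.85 ± 0.12 (adjusted p = 5.82e-07) and 0.94 ± 0.24 (adjusted p = 0.00131). SEMA6A, a ligand of plexins A2 and A4, had 17, 11 and 15 reads per library under shNC and 3, 3 and 9 under shNUF2 and went the other way, from 0.919 ± 0.257 to 0.351 ± 0.215 CPM (SD, n = 3 each). Its log2 fold change was -1.32 ± 0.52 (SE, adjusted p = 0.0285), from -1.97 without shNUF2 replicate 3 to -1.08 without shNUF2 replicate 1, in a gene that could enter the test only by being lower with shNUF2. The call was also lost under DESeq2 (adjusted p = 0.0652), with no filter (0.0573), on both FPKM scales (0.0871 and 0.222), and without shNC replicate 1, shNUF2 replicate 1 or shNUF2 replicate 2 (adjusted p = 0.102 to 0.119). Without shNC replicate 3 its reads were too few for the test.

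**Figure D4:**
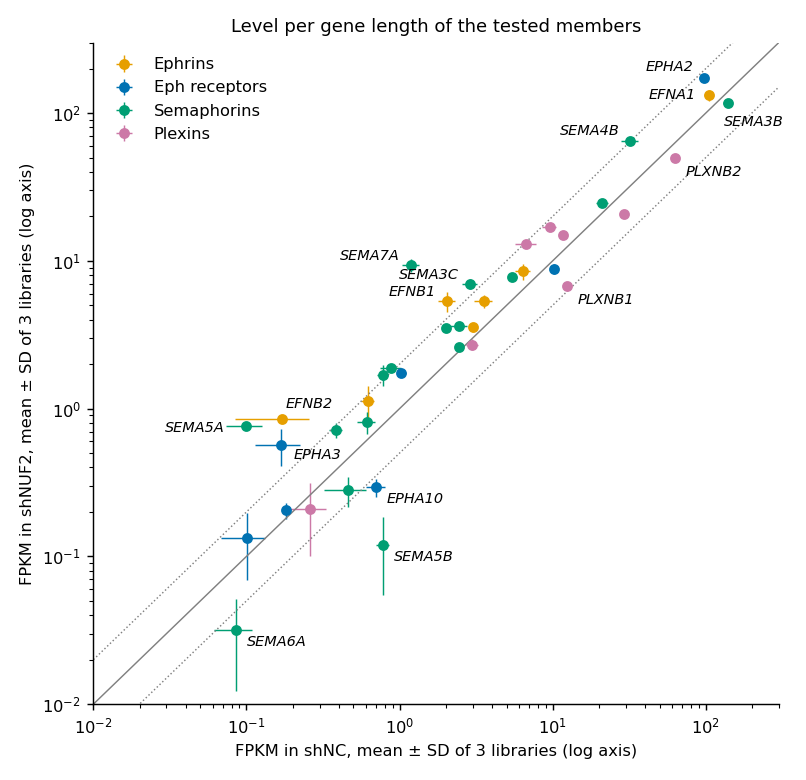
Mean FPKM ± SD (3 libraries) with shNC against that with shNUF2, on log axes, for the 39 genes tested, where the solid line marks equality and the dotted lines a factor of 2. SEMA7A, SEMA5A, EFNB2, EPHA3, EFNB1, SEMA3C, SEMA4D, SEMA6D and SEMA4B lie above the upper dotted line, SEMA4B at a high level (32.1 and 65.0 FPKM). SEMA5B, SEMA6A and EPHA10 lie below the lower one, while EPHA2, SEMA3B and EFNA1 hold the highest levels in both groups.

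Of 8 plexins tested, 3 were higher, 3 lower and 2 did not pass, against 33.9% higher and 33.8% lower of all genes tested, and the lower ones included the most abundant. Their median log2 fold change was -0.18, or -0.09 without shNC replicate 1 and -0.05 without shNUF2 replicate 2. PLXNB2, the plexin with the highest level and a receptor of SEMA4C, had FPKM values of 64.9, 60.9 and 62.5 in the shNC libraries and 50.7, 49.8 and 48.7 in the shNUF2 libraries. It fell by a small amount (-0.30 ± 0.042, SE, adjusted p = 7.18e-07), with no overlap. PLXND1, the vascular plexin that binds SEMA3E without a neuropilin, had FPKM values of 30.4, 29.1 and 28.9 with shNC and 21.3, 20.4 and 20.9 with shNUF2 and also fell (-0.46 ± 0.044, SE, adjusted p = 7.26e-10). PLXNB1, the receptor of SEMA4D, had 1696, 1972 and 1974 reads per library under shNC and 909, 846 and 1036 under shNUF2. It fell more than the others (-0.83 ± 0.052, SE, adjusted p = 1.46e-13), and every shNUF2 library lay far below shNC.

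PLXNB3, a receptor of SEMA5A, had 775, 723 and 687 reads per library under shNC and 1286, 1198 and 1381 under shNUF2. It rose from 46.6 ± 7.38 to 93.1 ± 1.98 CPM (SD, n = 3 each), a log2 fold change of 1.01 ± 0.074 (SE, adjusted p = 3.98e-12), so it lay at the threshold of 1. It was below 1 with library totals alone (0.97), upper quartile scaling (0.999), no filter (0.98), on log2(FPKM + 1) (0.88) and log2(FPKM + 0.1) (0.96), and without shNC replicate 2 (0.99), shNC replicate 3 (0.90) or shNUF2 replicate 1 (0.99), with an adjusted p past the threshold in each. Exons of PLXNB3 overlap those of SRPK3 on the same strand by 1432 bases, and reads there cannot be assigned with certainty. PLXNA3 and PLXNA1, receptors of class 3 and class 6 semaphorins, rose by 0.87 ± 0.062 (adjusted p = 2.34e-12) and 0.40 ± 0.046 (adjusted p = 2.27e-08). The ratio of PLXNA3 to PLXNB1 FPKM was 0.859, 0.661 and 0.810 with shNC and 2.67, 2.40 and 2.44 with shNUF2, so the order of these plexins was opposite in the groups. PLXNA2 (-0.11 ± 0.079, adjusted p = 0.236) and PLXNC1 (-0.26 ± 0.33, adjusted p = 0.49) did not pass. PLXNC1, the plexin that binds SEMA7A, had 48, 38 and 35 reads per library under shNC and 29, 13 and 48 under shNUF2, and its sign rested on shNUF2 replicate 2, without which the log2 fold change was 0.06. PLXNA4 had at most 3 reads. Summed over the family, FPKM was 136 ± 4.63 and 125 ± 2.13 with shNC and with shNUF2 (SD, n = 3 each).

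Ligands and receptors known to bind each other did not move in 1 common direction. These pairs were set side by side from textbook knowledge after their values were seen, and other pairs among these genes were left out. EFNA1 and EPHA2 were both higher (0.38 and 0.87 on the log2 scale), as were SEMA5A and PLXNB3 (2.94 and 1.01) and SEMA6D and PLXNA1 (1.15 and 0.40). In contrast, EFNB2 was higher and EPHB4 lower (2.32 and -0.17). The EPHB4 call was lost under DESeq2 (adjusted p = 0.0565) and without certain libraries, and EPHB2, the other B-class receptor tested, was higher (0.80). SEMA4D was higher and PLXNB1 lower (1.14 and -0.83), and SEMA4C was higher and PLXNB2 lower (0.55 and -0.30). Likewise, SEMA3C was higher and PLXND1 lower (1.32 and -0.46). SEMA7A was higher while PLXNC1 did not pass (3.02 and -0.26). RNA levels do not give the amount of protein at the cell surface, which was not measured here.

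A list of 71 signalling partners, chosen for textbook roles, was examined beside the ligands and receptors. Of these 62 were tested, 26 were higher, 19 were lower and 17 did not pass at the adjusted p, which is 41.9% higher and 30.6% lower against 33.9% and 33.8% of all genes tested, and the median log2 fold change was 0.12. Among 9 co-receptors and other surface partners tested, 4 were higher and 2 lower. The neuropilins, co-receptors of class 3 semaphorins, changed little: NRP1 had a log2 fold change of 0.27 ± 0.11 (SE, adjusted p = 0.0354), which passed in the fit given here and was lost in 9 of 15 alternatives, and NRP2 had 0.14 ± 0.16 (adjusted p = 0.464). ITGA1, the integrin alpha-1 chain that pairs with beta-1 in a receptor of SEMA7A, had 1170, 1244 and 1355 reads per library under shNC and 2644, 2373 and 3045 under shNUF2 and rose by 1.28 ± 0.05 (adjusted p = 6.81e-18).

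Among 25 plexin effectors tested, 10 were higher and 10 lower, near the 33.9% and 33.8% of all genes tested. RND3 and RND1, which bind plexins, rose by 2.27 ± 0.054 (adjusted p = 1.79e-22) and 1.19 ± 0.15 (adjusted p = 1.75e-07), and RND3 had 627, 751 and 793 reads per library under shNC and 3128, 2888 and 3125 under shNUF2. RAC1, a GTPase that drives membrane protrusion and binds B-type plexins, had 2363, 2626 and 2843 reads per library under shNC and 4567, 4348 and 5077 under shNUF2 and rose by 1.03 ± 0.042 (adjusted p = 1.59e-17). RHOD, another GTPase that binds plexins, went the other way, with 1004, 1084 and 1047 reads per library under shNC and 424, 428 and 491 under shNUF2 (-1.04 ± 0.07, SE, adjusted p = 6.78e-13). The RND3 groups were far apart.

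Among 24 effectors of Eph receptors and ephrins tested, 11 were higher and 6 lower, against the same 33.9% and 33.8%. NGEF (ephexin 1), an exchange factor that binds EphA receptors, had 8, 18 and 14 reads per library under shNC and 47, 47 and 45 under shNUF2 and rose by 1.99 ± 0.32 (adjusted p = 4.89e-06). GRB7, an adaptor that binds activated Eph receptors, had 183, 157 and 210 reads per library under shNC and 399, 374 and 427 under shNUF2 and rose by 1.32 ± 0.11 (adjusted p = 2.82e-11). In both genes every shNUF2 library was above every shNC library. Of the 4 proteases tested that cut members of these families, 1 was higher and 1 lower.

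**Figure D5:**
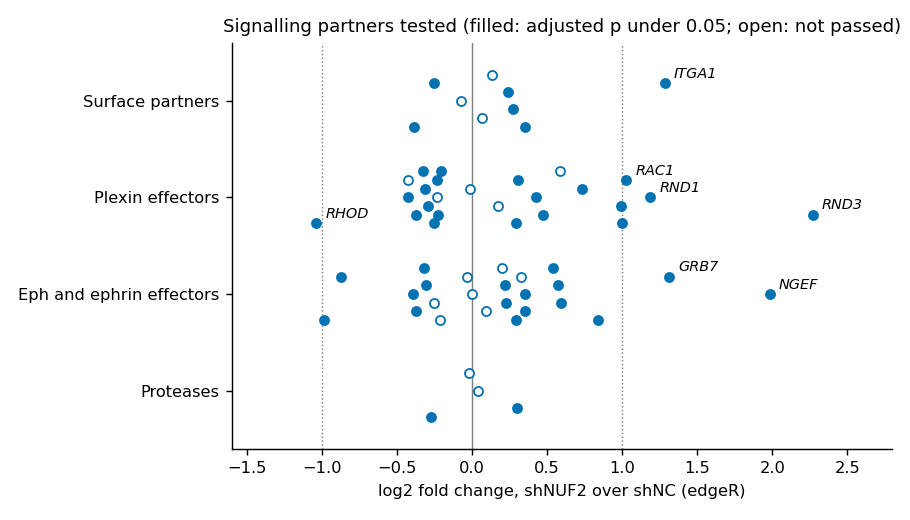
Log2 fold change (shNUF2 over shNC) of the 62 signalling partners tested in 4 lists, where filled points passed an adjusted p under 0.05, dotted lines mark 1 and -1, and the height within a list only separates points. Points lie on both sides of 0 in every list, and the labelled genes past 1 or -1 are ITGA1, RND3, RND1, RAC1, RHOD, NGEF and GRB7.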

How the data were processed

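Total RNA of OVCAR3 cells was extracted with TRIzol, libraries were made with the Illumina TruSeq Stranded mRNA kit, and they were sequenced on a NovaSeq instrument, per the labels and the methods of the study. The authors deposited 1 table with raw read counts and FPKM values (reads per kilobase of gene, scaled to library size) of 19973 genes in 6 libraries, with gene position and length. The submitters' processing notes name cutadapt, HISAT, HTSeq and GRCh38.p13. Their versions, the annotation release, the counting mode and the strand setting are not given in the sources used here.

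Genes were kept by filterByExpr, counts were scaled by TMM and the groups were compared with the quasi-likelihood test of edgeR 4.0.16 (R 4.3.3) in 1 fit of all 6 libraries without covariates, with Benjamini-Hochberg adjustment over the 12874 genes kept. CPM values are TMM-scaled. Standard errors were obtained from the log2 fold change and the root of the F statistic. The tests were tried on simulated counts. An exact permutation test of 3 against 3 libraries cannot go below p = 0.1 and was not used. The count of members past a log2 fold change of 1 or -1 uses an unadjusted p under 0.05, after the methods of the study. Those methods name a fold change above 1 or below -1 without stating log2, which is the reading taken here. The limit for adjusted p-values was also 0.05.

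Members and lists were chosen with earlier results of these data known. Reads and CPM are given for members past a log2 fold change of 1 or -1 at an adjusted p under 0.05 and levels for the 2 highest of each family by FPKM. Other members that passed are named with their fold change, members not tested with their reads, and signalling partners past 1 or -1, NRP1 and NRP2 with their values. PLXNB1, PLXNC1 and EPHB2 were given reads outside this rule, after their values were seen. Same-numbered libraries did not deviate together (correlations 0.03, 0.01 and -0.04 over genes), so the replicate number was used as a block only as an alternative. Any 2 libraries of a group differed by more than sampling noise (chi-square per degree of freedom 2.64 to 4.31). The alternatives were 3 other scalings, DESeq2 1.42.0, 2 other filters, limma 3.58.1 on log2(FPKM + 1) and log2(FPKM + 0.1), the replicate block, and each library left out. Exon overlaps came from GENCODE release 29. Promoter windows came from RefSeq and were matched by symbol. Python 3.11.15 with pandas 2.3.3 was used for tables.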

Additional observations from a re-analysis of the deposited data

How the results depend on the processing

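Of the fold changes of the members tested and of the 9 signalling partners named, recomputed under 15 alternatives, 682 kept their direction and their side of an adjusted p of 0.05, 26 kept only the direction, 2 passed it newly and 1 changed sign. The number of members higher past a log2 fold change of 1 was 10 in the comparison given, 7 with at least 1 CPM required in every library, where EFNB2, EPHA3 and SEMA5A were no longer fitted, 4 on log2(FPKM + 1), which compresses low genes by construction, and 9 to 12 when single libraries were left out. The number lower past -1 was 3, then 1 with at least 1 CPM in every library, where SEMA5B and SEMA6A were no longer fitted, and 0 on log2(FPKM + 1). It was 2 or 3 when single libraries were left out. With the replicate block, the counts of members were 10 and 3 past the thresholds and 24 and 8 at the adjusted p, and no member changed its call. The log2 fold change of PLXNC1, which did not pass, ranged from -0.70 to 0.061 when single libraries were left out and was 0.061 without shNUF2 replicate 2. The cause was not tested. Over all genes tested, 1212 were higher past 1 and 536 lower past -1, against 756 higher with at least 1 CPM in every library and 430 higher and 206 lower on log2(FPKM + 1). With no filter on low counts, 51 members were fitted and EFNB3, EPHA8, EPHB3 and SEMA4A were also called higher (13 past 1). EPHB3 was also fitted and called higher without shNC replicate 1, 2 or 3 or without shNUF2 replicate 3, where it passed the filter through the shNUF2 libraries alone and so had to differ. The medians of the Eph receptors, ephrins, semaphorins and plexins kept their signs under all alternatives (0.04 to 0.78, 0.39 to 0.72, 0.43 to 0.75 and -0.24 to -0.05). The 12 members not tested had at most 21 reads in any library and were left out by the filter on low counts.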

Other observations

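Other guidance systems, listed after the values of the ephrins and semaphorins had been seen, held genes that changed in both directions. Of 27 netrins, netrin receptors, SLIT and ROBO genes and repulsive guidance molecules, 13 were tested, 6 were higher and 3 lower with shNUF2 at an adjusted p under 0.05 (edgeR), against 33.9% higher and 33.8% lower of all genes tested. Of the 6, NTN1 and RGMA entered the test through the shNUF2 libraries alone and so had to differ, and their calls support nothing. NTN1, a secreted netrin, had 5, 3 and 8 reads under shNC and 22, 11 and 24 under shNUF2. RGMA, a repulsive guidance molecule that binds neogenin, had 1, 3 and 6 reads under shNC and 14, 11 and 24 under shNUF2. SLIT2, a secreted repellent, had 37, 73 and 68 reads under shNC and 79, 114 and 133 under shNUF2 (log2 fold change 1.07 ± 0.21, SE, adjusted p = 7.72e-05), while its receptor ROBO1, the gene of these lists with the most reads over the 6 libraries, fell by 0.56 ± 0.060 on the log2 scale (adjusted p = 6.68e-09). NTN3 had 20, 34 and 33 reads under shNC and 19, 7 and 10 under shNUF2 (-1.07 ± 0.38, SE, adjusted p = 0.0167), and its groups overlapped. The netrin receptor DCC had at most 1 read, and SLIT3 had none.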
